A study of Mus musculus with 23 samples.

Results

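The 35 cell proliferation genes described here are genes that dividing cells transcribe as they copy their DNA and go through mitosis, and they were picked by symbol from the 17194 genes counted in quadriceps or epididymal fat of mice with and without pancreatic tumors. All 35 were among the 16962 genes counted in fat, and 19 of them were among the 12831 counted in quadriceps. The study asked what interleukin 6 made by the tumor cells does to muscle and fat in pancreatic cancer cachexia, the wasting of both tissues. Male C57BL/6J mice were operated on at 8 weeks of age. KPC mice received KPC cells in the pancreas, a line from a pancreatic tumor of a male C57BL/6 mouse whose alleles included LSL-Trp53R172H and Pdx1-Cre, of which the Cre is driven by a promoter active in the pancreas. The cells were 1 clone that had been given the CRISPR/Cas9 plasmid without a guide. KPC IL6KO mice received 1 clone of that line with an Il6 gene disrupted by CRISPR/Cas9, and no tumor mice had sham surgery. The mice themselves carried no edited Il6 gene, so Il6 in their tissues is no check of the labels, and with 1 clone for each tumor group the edit and the clone cannot be told apart.

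Cells that leave rest make the MCM helicase, the clamp Pcna and the enzymes of nucleotide synthesis before they copy their DNA. They later make the cyclins, kinases and motor proteins of mitosis. Most of these genes are silent or low in cells at rest, where the DREAM complex represses them through promoter sequences that E2F and LIN54 bind, and they rise and fall with the share of dividing cells in a tissue. Adult muscle fibers and mature adipocytes do not divide, but satellite cells, fibroblasts, endothelium, blood cells, the germ line and tumor cells can.

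There were 3 no tumor, 4 KPC and 4 KPC IL6KO quadriceps libraries and 4 libraries of epididymal fat in each group, 23 in all. Library totals were 19259763 to 74907810 counts in quadriceps and 26306377 to 56308545 in fat, so that 3 counts equalled 0.0462 to 0.154 counts per 1000000 counts (CPM) and 0.0474 to 0.123 CPM. The 2 tissues were isolated and sequenced separately, and levels are not compared between them. Skeletal muscle fiber genes summed to 102600 to 170600 CPM in quadriceps, Myh4 being the highest. In the libraries labelled as fat, adipocyte genes summed to 1039 to 19170 CPM and genes of the epithelium of the epididymis, the organ to which this fat pad is attached, to 1471 to 90610 CPM, with Gpx5 at a mean of 20300 CPM. The typical coefficient of variation between mice was 22.7% in quadriceps and 63.5% in fat.

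The promoters of 4 genes are printed here, because their letters hold the elements through which proliferation genes are known to be regulated together. Mcm2, Mcm7 and Aurka were called in quadriceps, and Cdk1 in fat by the less strict tests. A RefSeq promoter, 250 bases before to 50 bases after the start in GRCm38.p6, was found for 30 of the 35 genes. Both strands were searched for the cell cycle genes homology region (CHR, TTTGAA or TTCGAA), the CCAAT box (CCAAT), and the E2F site (TTTCCCGC, TTTCGCGC, TTTGCCGC or TTTGGCGC), and the capitals below mark these matches, read from either strand.
Cdk1 (chr10:69352863-69353162, minus strand): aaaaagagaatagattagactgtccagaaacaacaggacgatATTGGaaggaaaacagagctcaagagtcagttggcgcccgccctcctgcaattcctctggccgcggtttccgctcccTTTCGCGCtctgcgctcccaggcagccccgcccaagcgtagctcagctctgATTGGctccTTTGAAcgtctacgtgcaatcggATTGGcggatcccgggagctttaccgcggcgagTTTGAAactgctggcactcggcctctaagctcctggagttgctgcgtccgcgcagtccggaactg
Mcm2 (chr6:88898731-88899030, minus strand): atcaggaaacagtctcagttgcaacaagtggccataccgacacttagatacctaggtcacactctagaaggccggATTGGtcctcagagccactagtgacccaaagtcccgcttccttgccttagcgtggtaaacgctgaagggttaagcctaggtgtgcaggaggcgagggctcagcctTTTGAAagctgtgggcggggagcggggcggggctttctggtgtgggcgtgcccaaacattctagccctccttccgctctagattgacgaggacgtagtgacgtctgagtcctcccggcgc
Mcm7 (chr5:138171834-138172133, minus strand): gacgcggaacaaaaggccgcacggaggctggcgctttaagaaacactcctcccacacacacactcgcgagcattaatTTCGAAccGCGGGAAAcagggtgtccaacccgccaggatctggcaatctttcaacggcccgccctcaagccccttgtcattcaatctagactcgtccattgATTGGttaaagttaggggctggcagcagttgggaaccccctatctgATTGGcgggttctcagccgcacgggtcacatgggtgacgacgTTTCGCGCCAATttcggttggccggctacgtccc
Aurka (chr2:172370521-172370820, minus strand): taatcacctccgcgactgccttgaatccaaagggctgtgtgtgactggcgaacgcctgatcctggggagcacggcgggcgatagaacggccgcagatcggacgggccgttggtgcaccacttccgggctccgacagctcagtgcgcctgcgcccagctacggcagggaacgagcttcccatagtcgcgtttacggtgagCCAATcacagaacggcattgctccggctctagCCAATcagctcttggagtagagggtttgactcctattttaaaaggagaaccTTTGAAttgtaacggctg
The promoter of Cdk1 and the printed promoter of Mcm7 held all 3 kinds of element, as did 0.146% of the 32851 promoters in the RefSeq set. A second RefSeq promoter of Mcm7 (chr5:138171217-138171516, minus strand) held 1 CCAAT box and neither of the others, and a gene was counted when any of its promoters held the element. In the printed promoter of Mcm7 the last capital run holds an E2F match and a CCAAT match that share letters. Mcm2 and Aurka held a CHR and a CCAAT box and no E2F match in this window. Over the 30 genes, a CHR was found in 19 (63.3%, against 19.2% of all promoters), a CCAAT box in 25 (83.3%, against 37.4%) and an E2F match in 5 (16.7%, against 2.26%). The CHR matches fell mainly among the mitotic genes, with 6 of 7 kinase and checkpoint genes and 6 of 7 spindle and cytokinesis genes but 2 of 9 S phase genes. The E2F matches were in Mcm3, Mcm5, Mcm6, Mcm7 and Cdk1. A match is a string of letters and does not show that a factor was bound.

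In quadriceps of KPC mice the proliferation genes did not move together. Of the 19 genes, 5 rose and 8 fell against no tumor, that is 26.3% and 42.1% of them, where 26.7% of all genes in the table were called up and 29% down. A gene was called at a false discovery rate (FDR) of at most 0.05 over all genes and a fold change (FC) of at least 1.5, by edgeR's quasi-likelihood test. The share that rose was therefore near the background. The median log2 FC of the 19 genes was -0.28, against -0.03 for all genes. The KPC libraries lay wholly above the no tumor libraries in 3 of the 19 genes, where 32.3% of all genes did so, and wholly below in 6, where 33% did. In bulk tissue, fewer cells of a kind and less RNA per cell cannot be told apart. No values were given in quadriceps for the other 16, which are Ccna2, Ccnb1, Ccnb2, Cdk1, Bub1, Aurkb, Plk1, Birc5, Cdc20, Ube2c, Cenpe, Cenpf, Kif23, Nusap1, Prc1 and Hmmr. These include every cyclin of the set and Cdk1, and the lowest total of any gene listed in that table was 156 counts over its 11 libraries.

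**Figure D1:**
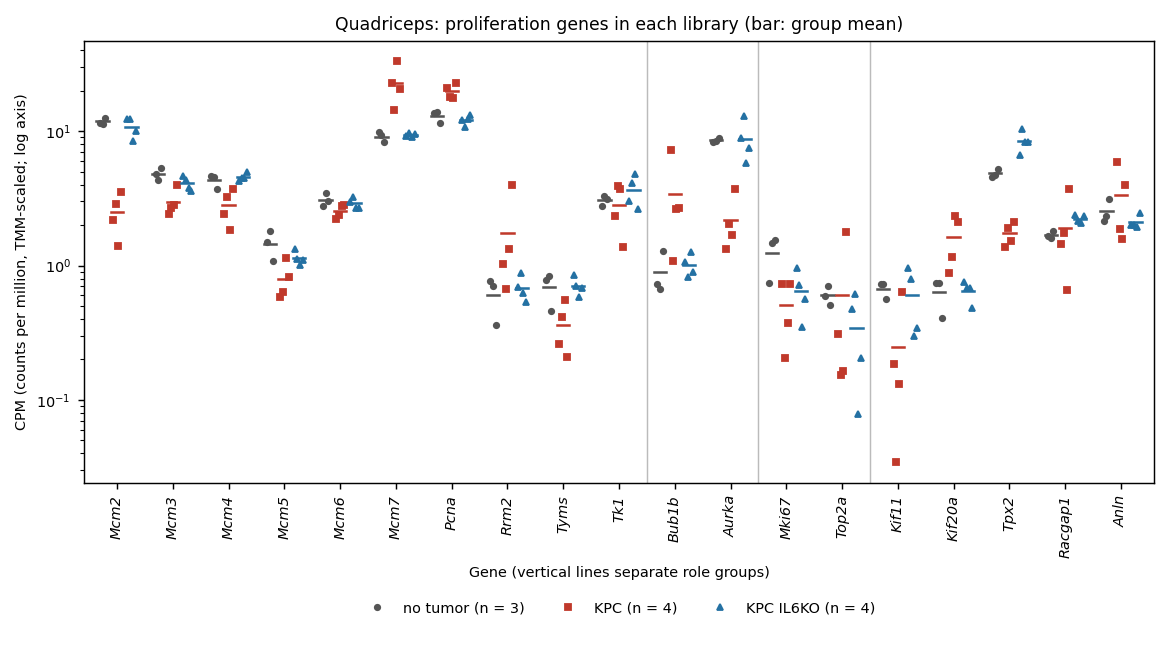
Level of the 19 proliferation genes in quadriceps, in CPM on a log axis, with a point for each library and a bar at each group's mean (3 no tumor, 4 KPC and 4 KPC IL6KO mice). The KPC points sit below both other groups for Mcm2, Aurka and Tpx2 and above both for Mcm7, Pcna and Kif20a.

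Of the 6 subunits of the MCM helicase, the ring that opens DNA at replication origins, Mcm7 rose, Mcm2, Mcm3, Mcm4 and Mcm5 fell, and Mcm6 did not pass the test. Mcm2 was 11.6, 11.4 and 12.5 CPM in no tumor quadriceps, 2.17, 2.88, 1.39 and 3.50 CPM in KPC and 12.4, 12.3, 8.42 and 10.1 CPM in KPC IL6KO. Every KPC library was below every library of the other groups, and Mcm2 was 4.76-fold lower in KPC than in no tumor mice (log2 FC -2.25, SE 0.259, FDR 1.99e-05). Mcm7, another subunit of the same ring, was 9.78, 9.35 and 8.25 CPM in no tumor, 22.8, 14.5, 33.4 and 20.7 CPM in KPC and 9.18, 9.66, 9.12 and 9.59 CPM in KPC IL6KO. It rose 2.50-fold (log2 FC 1.32, SE 0.225, FDR 0.000304), again without overlap between KPC and either other group. Of its exon bases, 7.3% are shared with Ap4m1 on the opposite strand, which also rose (log2 FC 1.00), and 1.4% with Cops6, which was at log2 FC -0.04. The sources used here do not state whether reads were counted by strand, so reads of such pairs may be mixed.

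Mcm3 was 4.83, 4.31 and 5.33 CPM in no tumor and 2.40, 2.70, 2.85 and 4.01 CPM in KPC quadriceps, without overlap (log2 FC -0.69, SE 0.192, FDR 0.00759). Mcm4 was 4.61, 4.58 and 3.74 CPM in no tumor and 2.42, 3.25, 1.85 and 3.73 CPM in KPC, the highest KPC value lying just under the lowest no tumor value (log2 FC -0.62, SE 0.219, FDR 0.0246). Mcm5 was 1.49, 1.80 and 1.08 CPM and 0.585, 0.633, 1.15 and 0.828 CPM, and KPC 3 lay among the no tumor libraries (log2 FC -0.89, SE 0.278, FDR 0.014). The call of Mcm4 was lost without no tumor 1, no tumor 2, KPC 1 or KPC 3, and that of Mcm5 without no tumor 2. Mcm6 was not called (log2 FC -0.28, SE 0.164). Per kilobase of all annotated exon bases, Mcm7 was already the highest of the 6 subunits in no tumor quadriceps. It was at 2.06 CPM per kb against 1.70 for Mcm2, and in KPC the levels were 5.16 and 0.357 CPM per kb. The no tumor order rests on these lengths, 4426 bases for Mcm7 and 6956 for Mcm2, which may exceed the transcripts in use. Without division by length Mcm2 had the higher no tumor mean, 11.8 CPM against 9.13 CPM.

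Pcna encodes the sliding clamp that holds DNA polymerase on its template. It was 13.6, 13.9 and 11.5 CPM in no tumor, 20.98, 18.1, 17.7 and 22.96 CPM in KPC and 12.1, 10.8, 12.4 and 13.2 CPM in KPC IL6KO quadriceps. KPC stood above both other groups without overlap, and Pcna rose 1.53-fold (log2 FC 0.61, SE 0.129, FDR 0.00132). That is close to the FC of 1.5, and without no tumor 3 or without KPC 4 it was under it. Rrm2, the regulated subunit of ribonucleotide reductase, was 0.762, 0.705 and 0.359 CPM in no tumor and 1.03, 0.668, 1.33 and 3.97 CPM in KPC. KPC 4 was far above the other 3 KPC libraries, of which KPC 2 lay within the no tumor range (log2 FC 1.46, SE 0.555, FDR 0.0349), and without KPC 4 Rrm2 was at log2 FC 0.66 and not called, nor was it called without no tumor 1, no tumor 2 or no tumor 3. Tyms, which makes thymidylate, was 0.779, 0.843 and 0.461 CPM and 0.262, 0.411, 0.556 and 0.207 CPM. Its groups overlapped through KPC 3 (log2 FC -0.98, SE 0.353, FDR 0.027), and leaving out no tumor 1, no tumor 2 or KPC 1 ended the call. Tk1, the thymidine salvage kinase, did not pass the test (log2 FC -0.12, SE 0.33).

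Of the mitotic kinase and checkpoint genes, 2 were counted in quadriceps, and they changed in opposite directions. Aurka, the kinase of the spindle poles, was 8.28, 8.48 and 8.86 CPM in no tumor, 1.32, 2.05, 1.69 and 3.73 CPM in KPC and 8.92, 13.03, 5.77 and 7.55 CPM in KPC IL6KO quadriceps. It fell in KPC by 1.96 on the log2 scale (SE 0.337, FDR 0.000325), and no KPC library reached the range of another group. Tpx2, which binds and activates Aurora A on spindle microtubules, was 4.55, 4.70 and 5.28 CPM, 1.37, 1.92, 1.52 and 2.13 CPM and 6.60, 10.4, 8.34 and 8.35 CPM in the same order of groups. The 3 groups of Tpx2 were fully apart, KPC lowest and KPC IL6KO highest, and it fell in KPC by 1.48 on the log2 scale (SE 0.196, FDR 5.4e-05). Bub1b, the checkpoint protein BubR1, was 0.727, 0.666 and 1.28 CPM in no tumor and 7.30, 1.08, 2.63 and 2.69 CPM in KPC. KPC 1 was the highest library and KPC 2 lay within the no tumor range (log2 FC 2.00, SE 0.55, FDR 0.00685). Without KPC 1 Bub1b was at log2 FC 1.31 and still called.

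Mki67, which coats mitotic chromosomes and is the Ki-67 stain of pathology, was low in every group. It was 0.745, 1.47 and 1.54 CPM in no tumor, 0.724, 0.205, 0.376 and 0.734 CPM in KPC and 0.965, 0.719, 0.346 and 0.566 CPM in KPC IL6KO quadriceps. All KPC values lay below the no tumor values, though KPC 1 and KPC 4 by little (log2 FC -1.27, SE 0.467, FDR 0.0301), and the call was lost without no tumor 2, no tumor 3, KPC 2 or KPC 3. Top2a, which untangles sister chromatids, was 0.589, 0.705 and 0.512 CPM in no tumor and 0.308, 0.154, 0.164 and 1.77 CPM in KPC, where 3 libraries were below and KPC 4 above the no tumor range. Kif20a, a kinesin of cytokinesis, was 0.745, 0.745 and 0.410 CPM in no tumor and 0.878, 1.16, 2.34 and 2.11 CPM in KPC, without overlap (log2 FC 1.31, SE 0.377, FDR 0.00898). It shares 29.3% of its exon bases with Cdc23 on the opposite strand, which was at log2 FC -0.14 (FDR 0.325). Kif11 (log2 FC -1.48, SE 0.691, FDR 0.0765), Racgap1 (0.17), Anln (0.41) and Top2a (-0.05, SE 0.838) did not pass the test. KPC 4 decided Kif11 and Top2a, which without it were called down (Kif11 at log2 FC -2.51, FDR 0.00304, and Top2a at -1.53, FDR 0.041). Kif11 rests on 2 counts in KPC 2. Of the 13 calls, 7 held each time a library was left out and in every other analysis in which the gene was tested, those of Mcm2, Mcm3, Mcm7, Bub1b, Aurka, Kif20a and Tpx2.

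In quadriceps of KPC IL6KO mice, no proliferation gene was called against the same no tumor libraries. By the quasi-likelihood test 0 of 19 were called up and 0 down, as were 0% of all genes in either direction. At an unadjusted p under 0.05, 1 gene was higher, Tpx2, where 2.19% of all genes were. Tpx2 had a log2 FC of 0.80 (SE 0.196) and a quasi-likelihood FDR of 0.289. It was the 1 gene of the set called by edgeR's likelihood ratio test (FDR 0.0472), where 0.195% of all genes were called up, and by DESeq2 (FDR 0.0157), where 0.234% were. Over all analyses its log2 FC was 0.68 to 0.90 and its FDR 0.0157 to 1. The KPC IL6KO libraries lay wholly above the no tumor libraries for Tpx2 and Racgap1, 2 of 19 genes, where 7.54% of all genes did so. The median log2 FC lay between -0.10 and 0.04 whichever library was left out.

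Set directly against each other, the tumor groups differed in quadriceps. Against KPC IL6KO, 5 of the 19 genes were higher in KPC and 5 lower, where 26.4% and 27.3% of all genes were. Those higher were Mcm7 (log2 FC 1.28, SE 0.202), Pcna (0.72, SE 0.118), Rrm2 (1.35, SE 0.49), Bub1b (1.76, SE 0.475) and Kif20a (1.32, SE 0.335). Those lower were Tpx2 (-2.28, SE 0.187), Mcm2 (-2.12, SE 0.246), Aurka (-2.01, SE 0.32), Tyms (-0.96, SE 0.325) and Mcm4 (-0.70, SE 0.203). Rrm2 lost this call without KPC 4 (log2 FC 0.57), without KPC IL6KO 1, 3 or 4 and with the replicate block, Tyms without KPC 1 or KPC IL6KO 1, and Mcm4 without KPC 3. Bub1b was at 1.08 without KPC 1, and Kif11, not called (-1.28, SE 0.642), was called down without KPC 4 (-2.31), as were Mcm3 (-0.62) and Racgap1 (-0.80). Mcm5 was called down without KPC 3 (-0.74), and Anln up without KPC 2 (0.87) or KPC 3 (0.91). Mki67, lower in KPC than in no tumor mice, did not pass the test against KPC IL6KO (-0.34, SE 0.438). KPC lay wholly above KPC IL6KO in 3 genes, where 31.2% of all genes did, and wholly below in 5, where 30.8% did. Both comparisons with KPC share the KPC libraries.

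**Figure D2:**
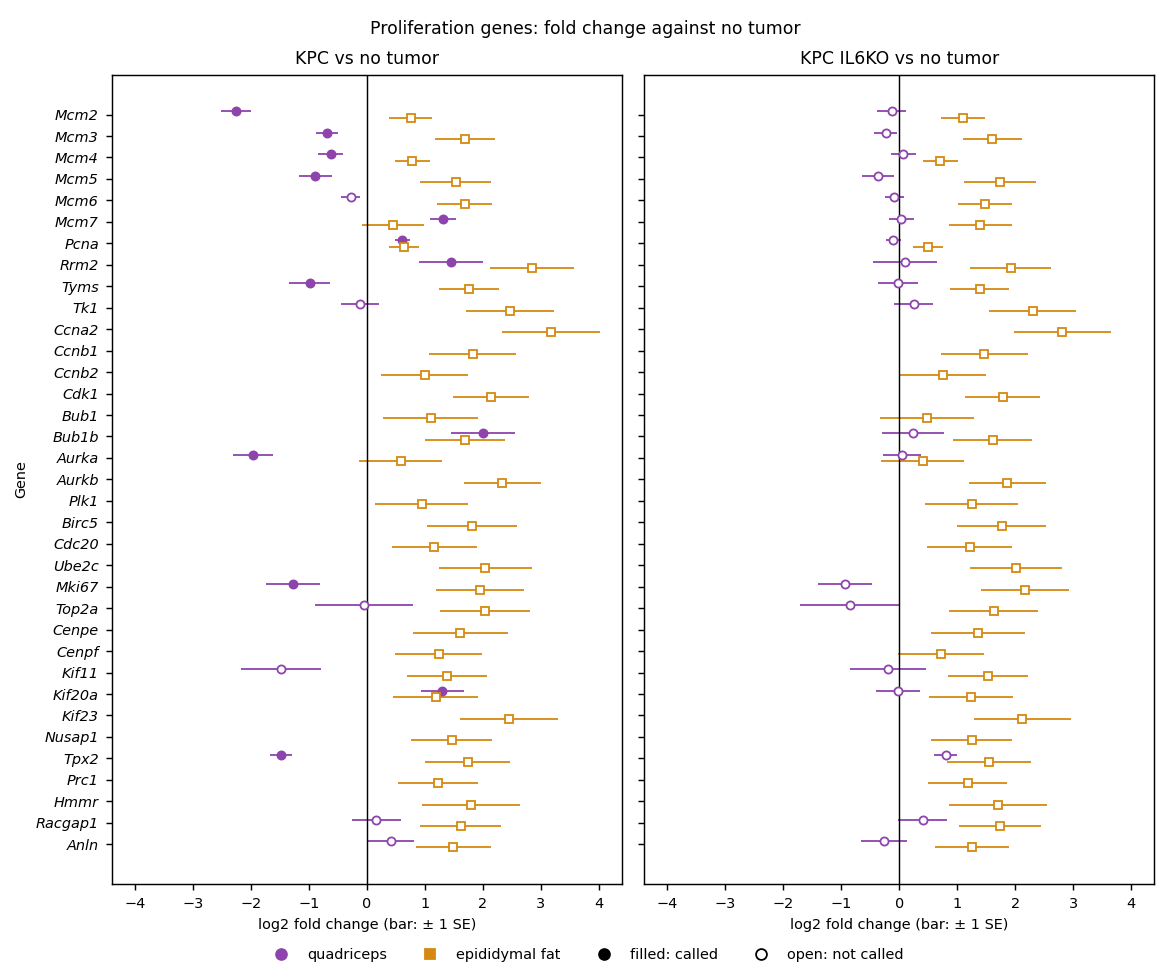
Log2 FC of each proliferation gene with its SE, for KPC and KPC IL6KO against no tumor in separate panels. Each panel shows quadriceps and epididymal fat by colour and marker, with filled points for genes called by the quasi-likelihood test. In quadriceps the KPC points run from Mcm2 at -2.25 to Bub1b at 2.00, and in fat all KPC and KPC IL6KO points lie above 0 and none is filled.

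Other genes of the cell cycle in quadriceps were described by lists drawn up by role. The counts stand against 26.7% of all genes called up and 29% called down in this comparison, and on lists this short they are a description. Of 7 G1 cyclins and their kinases, 0 rose and 4 fell in KPC against no tumor, from Cdk4 at log2 FC 0.24 to Ccnd1, the main cyclin of the G1 phase, at -3.95. Of 10 CDK inhibitors and quiescence genes 4 rose and 4 fell, with Cdkn1a, the inhibitor p21, at 4.70 and Cdkn2b at -2.81. Cdkn1a was 19.0 ± 1.75 CPM (SD, n = 3) in no tumor and 493 ± 245 CPM (SD, n = 4) in KPC quadriceps. Among 19 genes of E2F factors, pocket proteins and the MuvB core, which together regulate most of the 35 genes, 9 rose and 4 fell, with Tfdp2 at 3.04 and E2f2 at -2.86. In the list of replication licensing and fork genes 3 of 19 rose, led by Cdt1 at 1.39, and 5 fell. Of 14 other mitosis genes 2 rose and 3 fell, with Tacc3 at 1.83 and Cenpa at -2.06. In KPC IL6KO against no tumor, 0 genes of these lists were called, as were 0% of all genes in either direction.

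Markers of other cells also moved in quadriceps of KPC mice. The 6 fibroblast genes summed to 989 to 1102 CPM in no tumor, 165 to 283 CPM in KPC and 562 to 850 CPM in KPC IL6KO, Dcn being the highest. The 4 neutrophil genes in the table summed to 0.359 to 0.779 CPM, 4.497 to 21.8 CPM and 2.14 to 4.13 CPM in the same order, led by S100a8. The 2 erythroid genes summed to 1.95 to 2.61 CPM, 6.15 to 19.99 CPM and 3.88 to 6.60 CPM, led by Alas2, and the 3 ductal and tumor epithelium genes to 2.41 to 4.14 CPM, 2.60 to 20.7 CPM and 1.70 to 2.42 CPM, led by Sox9. The ductal list has 7 genes, of which these 3 were counted in quadriceps. KPC 1, which held the highest Bub1b, and KPC 4, which held the highest Rrm2 and Pcna, had the highest ductal sums, 20.7 and 13.6 CPM. Mcm7 (33.4 CPM) and Kif20a (2.34 CPM) were instead highest in KPC 3, whose ductal sum was 4.71 CPM. Sums of 6 satellite cell genes (54.4 to 60.4, 40.6 to 104.6 and 56.4 to 75.0 CPM), 7 macrophage genes (84.4 to 118.2, 37.8 to 138.2 and 83.7 to 132.8 CPM) and 5 endothelial genes (172.7 to 237.9, 151.6 to 248.3 and 194.3 to 261.3 CPM) overlapped between all groups. Single genes of these lists changed all the same, where 26.7% of all genes were called up and 29% down in KPC against no tumor. Of the satellite cell genes 2 rose, with Myog at log2 FC 1.74, and 3 fell, with Myod1 at -2.93, of the macrophage genes 1 rose, Cd68 at 3.22, and 2 fell, with Adgre1 at -1.54, and of the endothelial genes 2 fell, with Tek at -0.84. The 6 genes of muscle fibers summed to 135900 to 167900 CPM in no tumor, 102600 to 124400 CPM in KPC and 156500 to 170600 CPM in KPC IL6KO, so that KPC lay below both other groups without overlap. The 6 adipocyte genes summed to 343.8 to 1552, 148.4 to 746 and 164.2 to 359.3 CPM. The granulocyte precursor gene Chil3 was at most 0.0173 CPM in no tumor and 0.873 to 2.39 CPM in KPC. The part of these cells in the changes of the 19 genes was not tested.

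In epididymal fat the proliferation genes were higher on average in both tumor groups, but the spread between mice was large and none passed the main test. All 35 had a positive log2 FC in KPC against no tumor, with a median of 1.62 against -0.10 for all genes. The quasi-likelihood test called 0 of the 35, as it called 0% of all genes up, the smallest FDR among the 35 being 0.225. When the fit left out KPC IL6KO it called 9, where 0.991% of all genes were called up. At an unadjusted p under 0.05, 21 of the 35 (60%) were higher in KPC, where 6.26% of all genes were. The likelihood ratio test called 6 up (Rrm2, Ccna2, Mcm6, Aurkb, Cdk1 and Tk1), where 1.58% of all genes were called, and DESeq2 called those and Tyms and Mcm3, 8 in all, where 2.15% were. The KPC libraries lay wholly above the no tumor libraries in 23 genes, or 65.7% of the set, where 6.52% of all genes did. Since the same libraries were high in nearly all of them, the genes are not separate observations. The correlation of 2 genes' deviations from their group means over the 12 libraries had a median of 0.897 over 595 pairs of genes, against 0.196 over 171 pairs in the 11 quadriceps libraries, values that share library and depth.

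**Figure D3:**
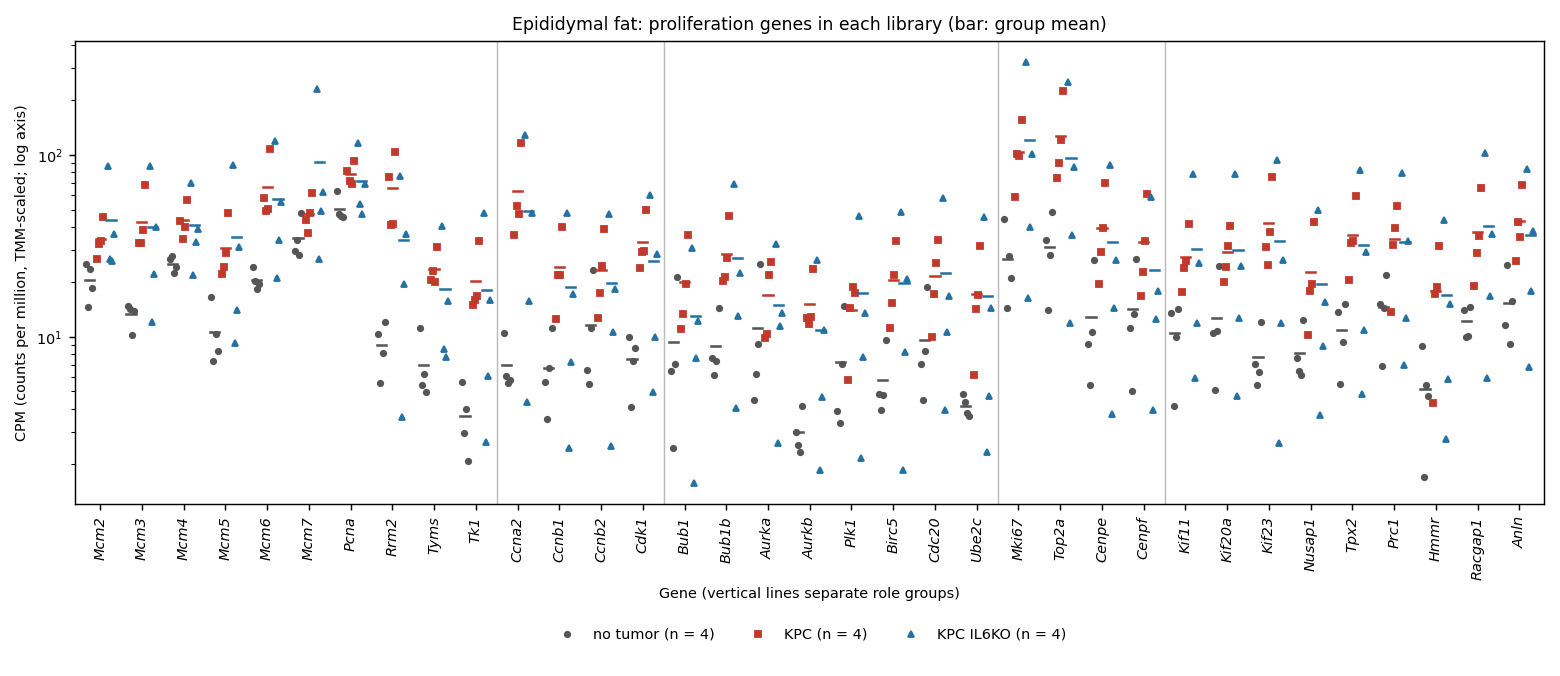
Level of the 35 proliferation genes in epididymal fat, in CPM on a log axis, with a point for each library and a bar at each group's mean (4 mice per group). The KPC points lie above the no tumor points in 23 genes, and the KPC IL6KO points spread from below the no tumor range to the highest values of the plot.

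The S phase genes were higher in KPC fat by 0.45 to 2.86 on the log2 scale. Rrm2 was 10.3, 5.57, 8.16 and 12.1 CPM in no tumor, 75.5, 41.05, 41.6 and 104 CPM in KPC and 76.9, 3.63, 19.4 and 36.9 CPM in KPC IL6KO fat. Every KPC library was above every no tumor library, and KPC IL6KO ranged from below no tumor to the level of KPC (KPC against no tumor log2 FC 2.86, SE 0.723, FDR 0.225, and 0.00296 to 0.509 over the analyses). Mcm2 was 25.2, 14.6, 23.6 and 18.5 CPM, 26.8, 32.4, 33.6 and 45.4 CPM and 86.7, 26.6, 26.1 and 36.8 CPM in the same order. It was the 1 gene whose KPC and KPC IL6KO libraries both lay wholly above no tumor (log2 FC 0.75, SE 0.375, and 1.11, SE 0.378), by a small gap. Mcm7 was 29.5, 33.9, 28.3 and 47.6 CPM, 44.03, 37.2, 47.7 and 61.3 CPM and 229, 26.8, 48.8 and 62.7 CPM. Its KPC and no tumor ranges overlapped through no tumor 8 (log2 FC 0.45, SE 0.535), and KPC IL6KO 5 was far above all other libraries. Pcna was 63.1, 47.3, 46.03 and 45.7 CPM, 81.5, 71.7, 68.8 and 92.6 CPM and 116, 53.5, 46.98 and 69.5 CPM, and was the highest S phase gene on average (log2 FC 0.64, SE 0.26). KPC was above no tumor in each Pcna library. The other members were Mcm3, Mcm4, Mcm5, Mcm6, Tyms and Tk1, with log2 FC between 0.79 and 2.47 and no overlap between KPC and no tumor.

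The cyclins and their kinase included the largest difference of the set in KPC fat. Ccna2, cyclin A2, which acts in S phase and at entry to mitosis, was 10.5, 6.05, 5.56 and 5.77 CPM in no tumor, 36.4, 52.2, 47.2 and 116 CPM in KPC and 128, 4.36, 15.7 and 47.8 CPM in KPC IL6KO fat. KPC stood clear of no tumor, while KPC IL6KO 6 fell below no tumor (KPC log2 FC 3.18, SE 0.842, FDR 0.233, and 0.00309 to 0.493 over the analyses). Ccna2 shares 12.5% of its exon bases with Exosc9 on the opposite strand, whose log2 FC was 0.47. Cdk1, the kinase that cyclins A and B switch on, was 9.90, 4.12, 7.37 and 8.70 CPM, 23.9, 29.3, 29.6 and 49.5 CPM and 60.5, 4.94, 9.95 and 28.6 CPM, with KPC wholly above no tumor (log2 FC 2.14, SE 0.653). Ccnb1 was 5.65, 3.53, 6.72 and 11.2 CPM, 12.4, 21.8, 21.7 and 40.1 CPM and 48.1, 2.44, 7.25 and 17.2 CPM. Its highest no tumor value, in no tumor 8, came close to the lowest KPC value (log2 FC 1.82, SE 0.758). Ccnb2 was 6.59, 5.50, 11.2 and 23.4 CPM, 12.7, 17.3, 24.4 and 38.96 CPM and 46.97, 2.50, 10.6 and 18.4 CPM, and here no tumor 8 lay above 2 of the 4 KPC libraries (log2 FC 1.00, SE 0.749).

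Mitotic kinase and checkpoint genes were higher in KPC fat by 0.59 to 2.34 on the log2 scale. Aurkb, the kinase of the chromosomal passenger complex, was 2.99, 2.53, 2.33 and 4.16 CPM in no tumor, 12.7, 11.7, 12.8 and 23.6 CPM in KPC and 26.3, 1.85, 4.67 and 10.9 CPM in KPC IL6KO, with KPC wholly above no tumor (log2 FC 2.34, SE 0.668). Aurka was 4.46, 6.23, 9.14 and 25.1 CPM, 9.78, 10.4, 21.7 and 25.8 CPM and 32.2, 2.61, 11.4 and 13.4 CPM. For Aurka no tumor 8 stood beside the highest KPC library, and the difference was the smallest of these genes (log2 FC 0.59, SE 0.714). Bub1b, the highest of them on average, was 7.61, 6.12, 7.39 and 14.4 CPM, 20.1, 21.3, 27.1 and 46.05 CPM and 69.2, 4.08, 12.98 and 22.4 CPM, again with KPC above no tumor in every library (log2 FC 1.69, SE 0.689). Birc5, which encodes survivin (1.82), and Ube2c (2.05) also had KPC wholly above no tumor, while Bub1 (1.10), Plk1 (0.95) and Cdc20 (1.16) overlapped. Ube2c shares 22.8% of its exon bases with Tnnc2, a troponin of muscle fibers, on the opposite strand. The group means of Tnnc2 in fat, in CPM, were 12.5 (no tumor), 0.0602 (KPC) and 55.0 (KPC IL6KO). Its log2 FC for KPC against no tumor was -7.6 (SE 1.96, FDR 0.225), opposite in sign to that of Ube2c. Sums of muscle fiber genes, in CPM, were 8.23 to 263 (no tumor), 2.63 to 10.2 (KPC) and 93.6 to 2468 (KPC IL6KO). The part of Tnnc2 reads in the Ube2c counts was not tested.

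Among the chromosome genes, Mki67 and Top2a were the most abundant in fat. Mki67 was 44.2, 14.4, 27.6 and 21.1 CPM in no tumor, 58.4, 101, 97.97 and 156 CPM in KPC and 324, 16.4, 40.3 and 101 CPM in KPC IL6KO (log2 FC in KPC 1.95, SE 0.759). Top2a was 33.9, 14.1, 28.04 and 48.2 CPM, 74.8, 89.97, 120.3 and 224 CPM and 250.8, 11.9, 36.2 and 85.2 CPM (log2 FC 2.03, SE 0.776). In both the KPC libraries were above no tumor without overlap, and the 4 KPC IL6KO libraries spread over a wider range than the other 8 libraries. Cenpf, a kinetochore protein, was 11.2, 5.05, 13.3 and 26.9 CPM, 16.7, 22.7, 33.5 and 60.6 CPM and 58.5, 3.94, 12.5 and 17.9 CPM and overlapped through no tumor 8 (log2 FC 1.24, SE 0.75), as did Cenpe (1.62). Of the spindle and cytokinesis genes, Anln, the actin scaffold of the cleavage furrow, had the highest mean. It was 11.5, 24.8, 9.07 and 15.7 CPM, 26.02, 42.6, 35.4 and 68.2 CPM and 83.03, 6.86, 17.9 and 38.03 CPM, with no tumor 6 just under the lowest KPC library (log2 FC 1.49, SE 0.641). This group ran from Kif20a (log2 FC 1.19) to Kif23 (2.45), kinesins that both act in cytokinesis, and Kif11, Kif23, Tpx2, Racgap1 and Anln had KPC wholly above no tumor.

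In fat of KPC IL6KO mice the log2 FC against no tumor was likewise positive in 35 of 35 genes, with a median of 1.48 against -0.03 for all genes. With the epididymis sum as a covariate 16 of the 35 turned negative, the lowest being Bub1 (-1.10), Aurka (-0.86) and Ccnb2 (-0.84), and 4 did without KPC IL6KO 5, whereas in KPC against no tumor 0 were negative in every analysis run. Both comparisons used the same 4 no tumor libraries. The quasi-likelihood test called 0 of 35, as 0% of all genes, with a smallest FDR of 0.394. At an unadjusted p under 0.05, 19 genes (54.3%) were higher, where 8.17% of all genes were. Ccna2 alone was called by the likelihood ratio test, where 1.23% of all genes were, and by DESeq2, where 1.66% were. The KPC IL6KO libraries lay wholly above no tumor in 1 gene, Mcm2, where 1.52% of all genes did so. Without KPC IL6KO 6 that number was 11, where 7.63% of all genes did.

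Between KPC and KPC IL6KO fat no gene of the set was called up or down by the quasi-likelihood test, the likelihood ratio test or DESeq2. Of all genes, the quasi-likelihood test called 0% up and 0% down, the likelihood ratio test 0.0413% and 0.348%, and DESeq2 0.112% and 0.625%. At an unadjusted p under 0.05, 0 of the 35 were higher and 0 lower in KPC, where 0.778% and 5.48% of all genes were. The log2 FC ran from -0.95 for Mcm7 (SE 0.538) to 0.93 for Rrm2 (SE 0.679), with a median of 0.17. The median was -0.17 without KPC 8 and 1.12 without KPC IL6KO 5. The SE of these differences was 0.259 to 0.812 on the log2 scale, so the values do not show that the tumor groups were alike.

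The libraries of the KPC IL6KO group stood far apart. KPC IL6KO 5 was the highest of all 12 libraries in 32 of the 35 genes, and KPC IL6KO 6 was the lowest of all in 23. Summed over the 35 genes, the 4 KPC IL6KO libraries held 3012, 301, 583 and 1114 CPM, against 503, 341, 419 and 615 CPM in no tumor and 923, 1086, 1243 and 2128 CPM in KPC. KPC 8 was the highest KPC library in 34 genes. Without KPC IL6KO 5 the median log2 FC of KPC IL6KO against no tumor was 0.52, and without KPC IL6KO 6 it was 1.83.

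Tissue makeup differed between the same libraries. KPC IL6KO 5, with the highest sum of proliferation genes, held the least epididymis RNA (1471 CPM) and germ cell RNA (3.61 CPM over 13 genes, 3 of them at 0), and the most from the lists of ductal and tumor epithelium (3401 CPM, led by Krt18) and mesothelium (629 CPM, led by Msln). KPC IL6KO 6, with the lowest sum, held the most epididymis RNA (90610 CPM) and the least of mesothelium among the tumor libraries (34.3 CPM). The range of the 10 epididymis genes was 13570 to 86240 CPM in no tumor, 40320 to 63950 CPM in KPC and 1471 to 90610 CPM in KPC IL6KO. The no tumor libraries followed this order only in part. No tumor 6 held the least epididymis RNA of that group (13570 CPM) and its lowest sum of proliferation genes (341 CPM). No tumor 8, with 17970 CPM of epididymis RNA, held the highest sum of proliferation genes in that group (615 CPM). No tumor 7 held 70820 CPM of epididymis RNA and 419 CPM of proliferation genes. No tumor 5 held the most epididymis RNA of that group (86240 CPM), with 503 CPM of proliferation genes. With the epididymis sum as a covariate, the median log2 FC was 1.75 in KPC against KPC IL6KO and 0.07 in KPC IL6KO against no tumor, and 9 genes were called up in KPC against no tumor, where 2.03% of all genes were in that fit. The 7 ductal and tumor epithelium genes summed to 531 to 1515 CPM in no tumor, 1520 to 3183 CPM in KPC, where KPC 8 was highest, and 1041 to 3401 CPM in KPC IL6KO. The part of epididymis RNA, tumor cells or mesothelium in the levels of the proliferation genes was not tested.

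**Figure D4:**
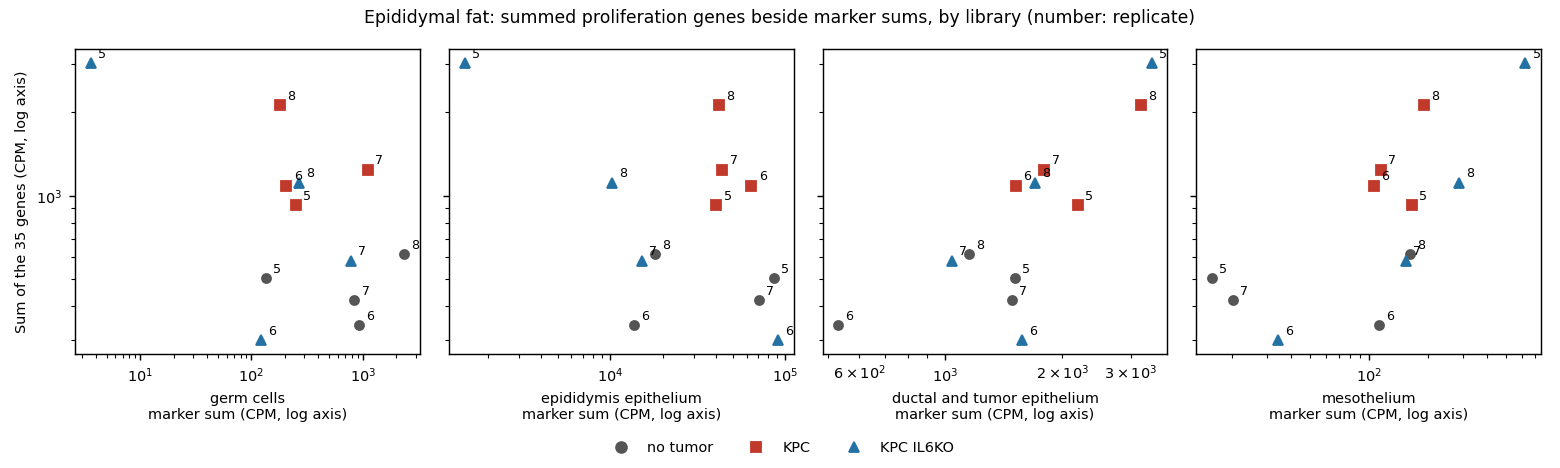
Summed CPM of the 35 proliferation genes in each epididymal fat library against the summed CPM of 4 marker lists, all on log axes, with a numbered point for each of the 12 libraries, coloured by group. KPC IL6KO 5, at 3012 CPM, is the highest in proliferation genes and the lowest in epididymis and germ cell genes, and no tumor 8 is the highest in germ cell genes.

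Some germ cells divide and mature sperm do not, and RNA of germ cell genes was present in the fat libraries. The 13 germ cell genes, led by Prm2 of mature sperm, summed to 135.2 to 2363 CPM in no tumor, 182.3 to 1124 CPM in KPC and 3.61 to 789 CPM in KPC IL6KO. The highest sum was in no tumor 8, which was the highest no tumor library in 21 of the 35 genes. These were 7 of 8 kinase and checkpoint genes, 7 of 9 spindle and cytokinesis genes, 3 of 4 chromosome genes, 2 of 4 of the cyclins and Cdk1, and 2 of 10 S phase genes. In Aurka no tumor 8 was 4.03 times, in Plk1 3.77 times and in Ccnb2 3.55 times the median of the other 3 no tumor libraries, while Mcm3 was 0.98 times and Pcna 0.966 times that median. Without no tumor 8, KPC lay wholly above no tumor in 32 of the 35 genes, where 8.23% of all genes did, in place of 23. The quasi-likelihood test still called 0. With the germ cell sum as a covariate the median log2 FC was 1.29 in KPC and 0.42 in KPC IL6KO against no tumor. Not every library was like no tumor 8. No tumor 6 held 923 CPM of germ cell genes but the lowest no tumor sum of the 35 genes (341 CPM). KPC 8 held the lowest KPC germ cell sum (182.3 CPM) and the highest KPC sum of the 35 genes (2128 CPM). The part of germ cells in the levels of the 35 genes was not tested.

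Blood and stromal markers were also given for fat. The 5 neutrophil genes in the table, led by Csf3r, summed to 2.79 to 6.37 CPM in no tumor, 21.9 to 52.5 CPM in KPC and 4.32 to 62.8 CPM in KPC IL6KO, and the 7 macrophage genes, led by Lyz2, to 208 to 890 CPM, 1009 to 1679 CPM and 358 to 2961 CPM. KPC stood above no tumor in both lists without overlap. Sums of erythroid genes were 8.56 to 25.3, 30.7 to 61.2 and 6.26 to 30.7 CPM, those of fibroblast genes 904 to 3084, 2097 to 4398 and 1323 to 4238 CPM, and those of endothelial genes 85.1 to 537, 211 to 696 and 198 to 522 CPM. Lymphocyte genes summed to at most 13.7 CPM. Granulocyte precursor genes, led by Ltf, summed to 6.84 to 766, 189.5 to 445 and 10.5 to 481.5 CPM. Single genes of this list ran from Ltf at log2 FC -2.63 to Chil3 at 7.7 in KPC against no tumor. The quasi-likelihood test called 0 of its 3 genes in the table, as it called 0% of all genes in that comparison. The 1 gene of the satellite cell list in this table, Vcam1, was 9.44 to 31.0, 65.1 to 170.5 and 16.2 to 410.5 CPM. The part of these cells in the levels of the 35 genes was not tested.

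Other cell cycle lists in KPC fat had smaller medians than the 35 genes, with 0 calls by the quasi-likelihood test. The median log2 FC was 0.17 for 8 G1 cyclins and kinases (Cdk4 0.68, Ccnd2 -0.80), 0.09 for 11 CDK inhibitors and quiescence genes and 0.23 for 21 E2F, pocket protein and MuvB genes (E2f8 2.27, Lin52 -0.65). It was 0.66 for 25 replication genes (Mcm10 2.08, Gins3 -0.16) and 1.18 for 31 other mitosis genes (Cenpa 2.21, Kif2c -0.19). Among the CDK inhibitors, Cdkn2c was at -1.74 and Cdkn2a, which encodes p16 and p19Arf, at 5.36 (SE 1.65, FDR 0.274). Cdkn2a was 0.123 to 0.474 CPM in no tumor, 3.24 to 27.5 CPM in KPC and 0.0686 to 109 CPM in KPC IL6KO.

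The response to KPC was compared between the tissues for the 19 genes counted in both. The sources used here do not say whether the 2 tissues were taken from the same mice, and the fit treated the 23 libraries as independent. In KPC against no tumor, the log2 FC in quadriceps was below that in fat in 16 of 19 genes. The difference passed the interaction test, edgeR's quasi-likelihood test over 12599 genes, for 11 of the 19, all lower in quadriceps, where 18.8% of all genes were, and 0 were higher, where 18.1% of all genes were. The 11 were Mcm2 (-3.12, SE 0.487), Mcm3 (-2.50, SE 0.578), Mcm4 (-1.52, SE 0.39), Mcm5 (-2.54, SE 0.721), Mcm6 (-2.07, SE 0.517), Tyms (-2.86, SE 0.646), Tk1 (-2.70, SE 0.861), Aurka (-2.63, SE 0.873), Mki67 (-3.34, SE 0.968), Kif11 (-2.97, SE 1.05) and Tpx2 (-3.32, SE 0.823), as log2 FC in quadriceps minus log2 FC in fat. Of the 5 genes that rose in quadriceps, Mcm7 (0.77, SE 0.635), Pcna (-0.14, SE 0.292), Rrm2 (-1.51, SE 0.935), Bub1b (0.20, SE 0.918) and Kif20a (0.03, SE 0.843) did not pass it. For KPC IL6KO against no tumor the quadriceps value was the lower in 19 of 19 genes. Of these 0 were called, where 0% of all genes were called lower. The share of all genes with the lower value in quadriceps was not computed for either comparison.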

How the data were processed

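RNA from quadriceps (11 libraries) and epididymal fat (12 libraries) was sequenced, and the sample titles gave tissue, group and replicate number. The deposited tables, 1 for each tissue, hold raw counts of reads per gene, which the authors made from STAR alignments to mm10 with featureCounts 1.5.1. No gene listed had a total under 156 counts in quadriceps or 111 in fat, a limit whose rule is not given in the sources used here. A further no tumor quadriceps library that the authors set aside as an outlier was not analysed here. The 35 genes and the other lists were chosen with earlier results of these data known.

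R 4.3.3 with edgeR 4.0.16 and DESeq2 1.42.0 was used, and figures were drawn with matplotlib 3.10.9. Counts were normalized by TMM, filterByExpr removed no gene, and edgeR's quasi-likelihood test was fitted without covariates to all 3 groups of a tissue at once. A gene was called when its FDR (Benjamini-Hochberg, over all genes of the table) was at most 0.05 and its FC at least 1.5. CPM are counts per 1000000 of the TMM-normalized library size. The tissue difference was an interaction in 1 fit of 23 libraries over the 12599 genes in both tables. Alternatives were the likelihood ratio test, DESeq2, RLE normalization, a newer quasi-likelihood form, a minimum of 10 counts, no filter, only the groups compared, a replicate block, germ cell and epididymis sums as covariates, and each library left out. Code was tested on simulated data. Within a tissue same-numbered libraries come from different mice, and their deviations correlated between -0.167 and 0.275 in quadriceps and between -0.573 and 0.585 in fat, so they were not paired. Libraries of a group differed beyond sampling noise.

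Values in every library are given for Mki67, Top2a, Ccnb1, Cdk1, Pcna and Mcm2 and, in each role group and tissue, for the gene with the highest mean, those with the highest and lowest log2 FC in KPC against no tumor, and any gene called, up to 15 in a tissue. In fat 17 qualified, and Kif20a and Kif23 are given by log2 FC. Of the other cell cycle lists the highest and lowest log2 FC are named, except 1 gene that is not reported here, and of marker lists the highest gene. Promoters and gene positions are those of RefSeq and GRCm38.p6, the build of mm10. The limit of 3 counts covers counting error only, and the FDR measures the spread between mice of 1 experiment.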

Additional observations from a re-analysis of the deposited data

Results flagged for a closer look

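In 9 of 143 groups of 4 libraries, the highest library stood apart from the others by Dixon's test. Independent values would give about 1 in 20, but the genes share libraries, so the 9 are not separate observations. In quadriceps these were Top2a in KPC 4 (1.77 CPM) and Anln in KPC IL6KO 4 (2.47 CPM). In fat KPC 8 stood apart for Mcm3 (67.9 CPM), Mcm6 (107.4 CPM), Tk1 (33.6 CPM) and Aurkb (23.6 CPM), no tumor 5 for Pcna (63.1 CPM) and Ccna2 (10.5 CPM), and no tumor 8, the library with the highest germ cell sum, for Birc5 (9.64 CPM).

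The log2 FC of KPC against no tumor differed between quadriceps and fat by the interaction test in 11 genes. Quadriceps minus fat was -3.12 for Mcm2, -2.50 for Mcm3, -1.52 for Mcm4, -2.54 for Mcm5, -2.07 for Mcm6, -2.86 for Tyms, -2.70 for Tk1, -2.63 for Aurka, -3.34 for Mki67, -2.97 for Kif11 and -3.32 for Tpx2.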

How the results depend on the processing

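Under the alternatives, 24 of 430 summary values of 20 results moved beyond their tolerance, and no gene value past the threshold changed direction. Of 431 values of called genes 398 stayed called. In quadriceps KPC against no tumor, the number up (5) was 2 with at least 10 counts in every library, where 14 of the genes were tested, and 3 with the replicate block. It was 3 to 5 with a library left out, being 3 without no tumor 3 or KPC 4. The number down (8) was 4 without no tumor 2 to 10 without KPC 4, and the median log2 FC (-0.28) was -0.48 with at least 10 counts, -0.75 with the block and -0.79 (without KPC 4) to -0.19 with a library left out. Against KPC IL6KO, 5 up became 3 with at least 10 counts, the number down was 4 to 8 (8 without KPC 4), and the median -0.56 to -0.20. In KPC IL6KO against no tumor 1 gene was called by the likelihood ratio test and by DESeq2.

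In fat, the number up in KPC (0) was 6 by the likelihood ratio test, 8 by DESeq2, 9 with only the groups compared and 9 with the epididymis covariate, and in KPC IL6KO 1 by the likelihood ratio test and by DESeq2. The median of KPC against no tumor was 1.23 (without KPC 8) to 1.81 (without KPC 5). That of KPC IL6KO was 0.42 with the germ cell and 0.074 with the epididymis covariate, and 0.67 without no tumor 8 and KPC IL6KO 5, an analysis added after the data were seen. That of KPC against KPC IL6KO was 1.75 with the epididymis covariate and 1.20 without those 2 libraries. The tissue difference was called in 10 to 12 genes for KPC with a library left out and in 0 to 3 for KPC IL6KO (3 without KPC IL6KO adipose 6). The causes of these shifts were not tested. Replicate numbers did not pair the libraries: 4 of 11 in quadriceps and 1 of 12 in fat correlated best with their own number. With 3 counts at up to 0.154 CPM in quadriceps, Tyms, Top2a, Kif11 (2 counts in KPC 2), Rrm2 (7 in no tumor 3) and Kif20a (8 in no tumor 3) rest on few reads.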
